A study of Mus musculus with 6 samples.

Results

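Lysosomal genes were examined in H3K4me3 peak lists from CD8+ tumour-infiltrating lymphocytes, the CD8 T cell fraction recovered from a tumour. The 46 genes were listed by name and comprised 3 transcription factors of the MiT/TFE family, 7 membrane proteins or transporters, 6 subunits of the vacuolar ATPase, 12 proteases, 13 glycosidases or sulfatases and 5 lipid enzymes or activators. They were 46 of 21887 protein-coding genes. All 46 were found in the RefSeq gene table of the GRCm38.p6 build, and together they lay under 102 of 48546 regions for the wild-type list and 103 of 46565 regions for the knockout list. A region is a stretch that the authors' peak caller found enriched over background.

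Wild-type cells came from C57BL/6 mice bearing E0771 tumours, a mouse mammary tumour line. Knockout cells came from the same strain and tumour type and carried a Cre-mediated deletion of Atg5, a gene required for autophagosome formation. The labels name neither the promoter that drove Cre nor the age of the mice, nor whether animals were pooled. H3K4me3 was profiled in 1 library per genotype after micrococcal nuclease digestion of the chromatin, so no difference below has a replicate check and no p-value is given. The H3K27me3 and input samples of the series were not analysed here.

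The lysosome is the acidic compartment in which enzymes break down proteins, glycans and lipids delivered by endocytosis or by autophagosomes. Its acidity is maintained by the vacuolar ATPase, a proton pump made of a membrane sector (V0) and a cytosolic sector (V1). TFEB, TFE3 and MITF are related basic helix-loop-helix factors that, when released from mTORC1 control at the lysosomal surface, enter the nucleus and activate many lysosomal and autophagy genes through an E-box known as the CLEAR element. H3K4me3 marks the starts of active genes, and its presence shows that a start carries the mark, not how much RNA is made.

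The labelled cell type, which is the same for both libraries, was checked against marker genes first, and coverage of the T cell markers differed between the lists. In the library labelled knockout, all 18 T cell marker genes had a region within 1 kb of the 5′ end. In the library labelled wild type 6 of 18 did, and 9 of 18 had no covered length within 2.5 kb, among them Cd8a, Cd3e and Bcl11b. The covered length of the 18 genes summed to 8448 bp in wild-type cells and 77102 bp in knockout cells. Myeloid markers were marked for 14 of 18 genes in wild-type cells and 11 of 18 in knockout cells, with sums of 24953 and 20906 bp, and S100a9, C1qa, C1qb and Cx3cr1 were at 0 bp in both. Epithelial or mammary tumour markers were marked for 8 of 11 genes in each list (11990 and 15150 bp), with Krt5, Krt14 and Krt19 at 0 bp. Fibroblast or endothelial markers were marked for 7 and 8 of 12 genes (23008 and 18876 bp), with Tie1, Tek and Vwf at 0 bp. The part of these markers in the differences below was not tested, and fewer cells carrying the mark cannot be told apart from less mark per cell.

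Promoters that hold the E-box core of the CLEAR element are shown first, since they are where the MiT/TFE factors are known to act and where the regions of both libraries lie. The core searched was CACGTG, which reads the same on both strands, along with TCACGTGA and with the full CLEAR consensus, which is the core with GT before it and AC after it. Both longer forms contain the core and also read the same on both strands. Of the 42 members with a RefSeq promoter entry (250 bases before to 50 after the start), 12 held CACGTG (28.6%), against 7.91% of the 17492 promoters of protein-coding genes with an entry. TCACGTGA was found in 5 of 42 members (11.9%) and in 1.25% of all these promoters. The full consensus was found in 0 of 42 members and in 0.446% of all, and a missing match says only that these letters are not in the window. The members were listed as lysosomal and TFEB target genes, so the list itself favours a higher share of the core. These shares describe the reference sequence and are no result of the 2 libraries. The 6 promoters below each hold a site that matches 9 of the 10 letters of the full consensus, taken in alphabetical order from the 7 that do (Naglu is the other). Each is 300 bases of GRCm38.p6 from RefSeq, written 5′ to 3′ along the gene, with CACGTG in capitals.
Atp6v0d1 (chr8:105566015-105566314, minus strand): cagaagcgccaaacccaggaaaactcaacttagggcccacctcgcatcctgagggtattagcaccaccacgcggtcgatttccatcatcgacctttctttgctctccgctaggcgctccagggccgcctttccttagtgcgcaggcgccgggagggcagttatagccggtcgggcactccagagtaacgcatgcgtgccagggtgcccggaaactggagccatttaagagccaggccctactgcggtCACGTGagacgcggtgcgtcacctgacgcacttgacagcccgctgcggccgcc
Ctsd (chr7:142387778-142388077, minus strand): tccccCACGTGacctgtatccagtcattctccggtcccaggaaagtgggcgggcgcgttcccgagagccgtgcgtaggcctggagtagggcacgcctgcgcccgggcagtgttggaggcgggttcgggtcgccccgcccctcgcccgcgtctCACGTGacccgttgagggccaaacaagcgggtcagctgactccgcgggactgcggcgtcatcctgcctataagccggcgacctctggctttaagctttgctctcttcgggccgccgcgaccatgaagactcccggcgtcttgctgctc
Gla (chrX:134600956-134601255, minus strand): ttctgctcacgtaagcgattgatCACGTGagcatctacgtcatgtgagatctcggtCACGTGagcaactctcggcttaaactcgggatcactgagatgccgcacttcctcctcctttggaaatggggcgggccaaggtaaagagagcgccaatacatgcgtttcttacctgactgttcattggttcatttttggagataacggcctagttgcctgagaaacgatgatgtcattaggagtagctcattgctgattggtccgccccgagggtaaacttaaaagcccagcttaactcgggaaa
Glb1 (chr9:114400828-114401127, plus strand): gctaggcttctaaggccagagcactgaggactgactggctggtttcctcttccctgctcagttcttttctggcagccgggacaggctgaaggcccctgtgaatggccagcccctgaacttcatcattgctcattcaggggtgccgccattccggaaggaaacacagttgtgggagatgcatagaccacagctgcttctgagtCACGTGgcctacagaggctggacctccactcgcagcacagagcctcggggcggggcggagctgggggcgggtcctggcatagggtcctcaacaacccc
Lamp1 (chr8:13158911-13159210, plus strand): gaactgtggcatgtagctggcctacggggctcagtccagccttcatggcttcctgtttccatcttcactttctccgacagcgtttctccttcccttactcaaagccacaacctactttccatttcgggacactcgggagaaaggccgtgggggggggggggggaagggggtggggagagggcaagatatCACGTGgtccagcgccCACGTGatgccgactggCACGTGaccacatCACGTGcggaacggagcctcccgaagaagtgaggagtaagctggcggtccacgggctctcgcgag
Mcoln1 (chr8:3500269-3500568, plus strand): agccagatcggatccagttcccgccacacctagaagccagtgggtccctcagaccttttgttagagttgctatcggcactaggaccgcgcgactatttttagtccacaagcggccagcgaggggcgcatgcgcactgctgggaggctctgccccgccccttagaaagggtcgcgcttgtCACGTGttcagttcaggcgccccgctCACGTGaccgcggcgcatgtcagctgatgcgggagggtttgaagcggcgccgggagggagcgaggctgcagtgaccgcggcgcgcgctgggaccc
Lamp1 holds 4 copies of the core between 61 and 15 bases before its start, whereas Atp6v0d1 holds 1 copy at the start itself. The 12 members carry 18 copies in all. Regions of the wild-type list covered 17 of these copies and regions of the knockout list covered 17. The exception in both lists was the copy 79 bases before the start of Ctsf, where no region reached in either library.

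Nearly all lysosomal genes carried H3K4me3 at their start in both libraries. Marked genes are those with a region no more than 1 kb from the 5′ end, taken as its most upstream start in the RefSeq promoter table. The wild-type list marked 44 of 46 genes, where 59.6% of all protein-coding genes were marked. The knockout list marked 45 of 46, where 61.1% of all were marked. Ctsk, the collagen-degrading cathepsin of osteoclasts, had no region within 2.5 kb or over the gene in either list. Ctsf was marked in the knockout only, as were 3.24% of all protein-coding genes, and none of the 46 was marked in the wild type only (1.66% of all).

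Covered length, which is how much of the 2.5 kb to each side of the 5′ end lay under regions, was similar in the libraries for most members. The median over the 46 genes was 2794 bp in wild-type cells and 2674.5 bp in the knockout, and the summed length was 124412 bp and 125130 bp. The median difference, knockout minus wild type, was 6 bp, beside −18 bp over the 14385 protein-coding genes covered in either list. The knockout had the longer coverage at 24 members (46.6% of covered genes) and the shorter at 19 (52.4%), with 3 equal. The libraries lay within 200 bp of each other for 25 of the 45 covered members, where 43.5% of covered genes did. A difference of at least 500 bp was used as the call. The knockout was longer by this measure for 5 of 45 covered members, where 14.9% of covered genes passed, and shorter for 5, where 9.86% passed. These shares lie near the background in both directions. The plot of covered length by member shows the 2 libraries on top of each other for most genes, with long gaps at Mitf, Ctss and Ctsc.

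**Figure D1:**
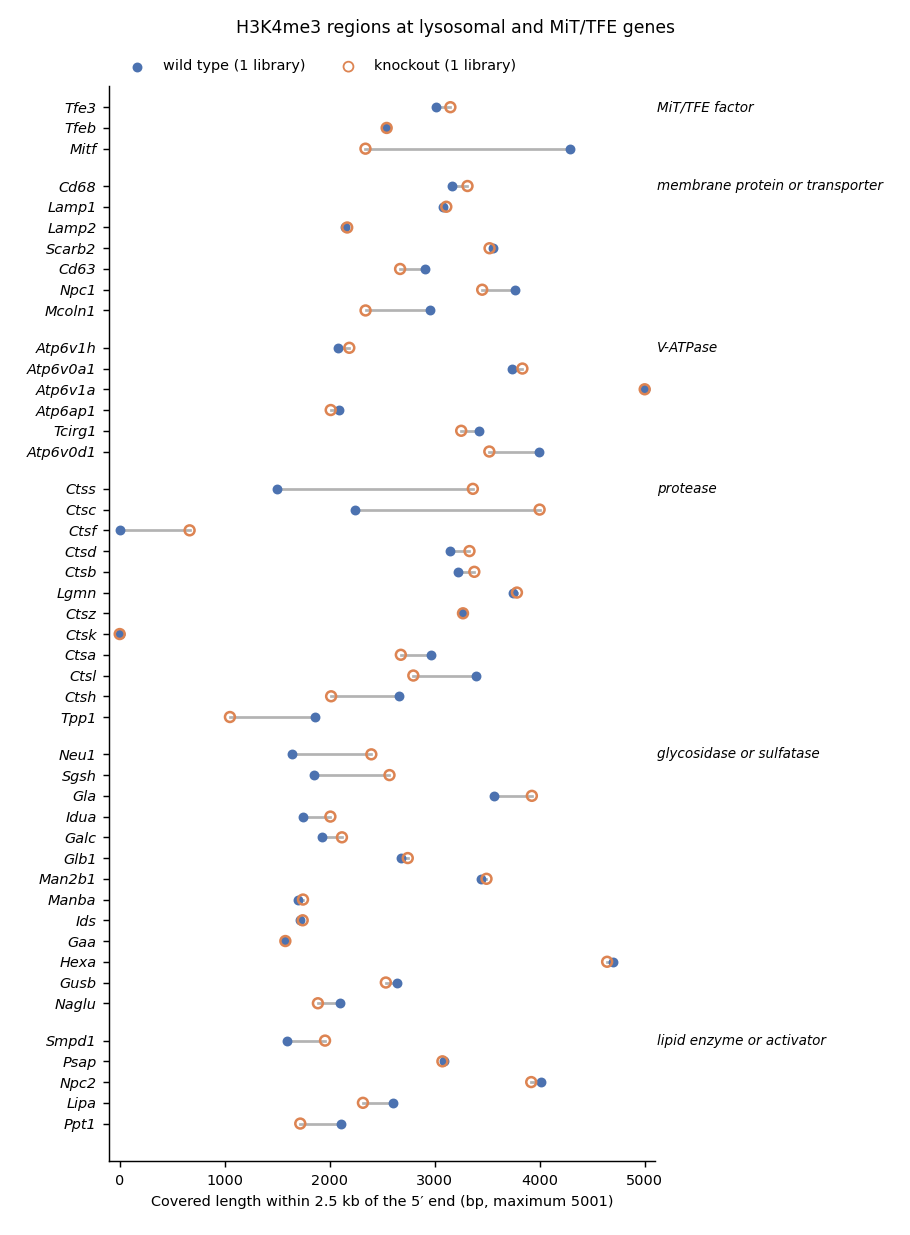
Covered length within 2.5 kb of the 5′ end (x axis, bp) for each of the 46 genes, grouped by role; filled points are the wild-type library and open points the knockout library, joined by a grey line. Mitf is at 4286 and 2341 bp, Ctss at 1494 and 3364 bp, and Ctsk at 0 bp in both.

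With all regions counted, Mitf stood apart from Tfeb and Tfe3 in covered length among the 3 transcription factors. Tfeb (chromosome 17, 47737037 to 47792416), the factor best known for control of lysosome number, had 2538 bp in wild-type cells and 2543 bp in knockout cells, a difference of 5 bp. Tfe3 (chromosome X, 7762530 to 7775202), which shares many targets with it, had 3014 and 3150 bp. Both small differences rested on a weak wild-type region upstream of the start. With only regions at a −log10 q of at least 10, the difference was 694 bp at Tfe3, past the 500 bp call, and 391 bp at Tfeb. At Tfeb with all regions, −383 bp upstream offset 388 bp downstream. At both genes the region ran mainly into the gene. The Tfeb region of the wild type covered 2152 bp with its summit 987 bp downstream of the first start, and that of the knockout covered 2600 bp with its summit 1015 bp downstream. Another annotated Tfeb start lies 894 bp downstream of the first, so these summits sat closer to the second start. The last annotated start, 48707 bp downstream, had 0 bp in both libraries.

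Mitf (chromosome 6, 97807002 to 98021360), the family member named for its role in pigment cells and also used in mast cells, osteoclasts and macrophages, had 4286 bp in wild-type cells and 2341 bp in knockout cells. Its difference of −1945 bp was the largest loss among the 46 genes, and 0.396% of covered genes were shorter in the knockout by at least 1500 bp. The difference was −1327 bp downstream of the start and −618 bp upstream. The region over the start spanned 3574 bp in wild-type cells and 2203 bp in knockout cells. The authors' fold is the reads at the summit of a region over a local background. For the region over the Mitf start it was 40.57 in wild-type cells and 38.97 in the knockout. These were at percentiles 97.1 and 92.5 of the fold values of each list. The summits lay 412 and 431 bp upstream of the start, so the strongest point was at nearly the same place. The annotated starts 122759 and 184725 bp downstream had 0 bp in both. Of the 18 myeloid markers, 10 were also shorter in knockout cells and 4 were longer (median −331 bp), beside 52.4% and 46.6% of covered genes. The part of these markers in the Mitf difference was not tested.

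The membrane proteins were marked in both libraries for all 7 genes. Lamp1 (chromosome 8, 13159161 to 13175338), an abundant glycoprotein of the lysosomal membrane that also reaches the surface of degranulating killer cells, had 3075 bp in wild-type cells and 3111 bp in knockout cells. Lamp2, the related protein needed for autophagosome fusion, had 2144 and 2167 bp. Its wild-type fold was the lowest of all the marked members (7.02), against 12.16 in the knockout list, and the summits lay 589 and 77 bp downstream of the start. Scarb2, the receptor that carries glucocerebrosidase to the lysosome, had 3560 and 3523 bp. The cholesterol exporter gene Npc1 had 3763 and 3453 bp, and Cd63, a tetraspanin of late endosomes, had 2907 and 2671 bp. With all regions counted, no difference among these 5 genes was larger than the −310 bp of Npc1. With the 20000 strongest regions kept in each list, the wild-type region at Lamp2 was absent and the Lamp2 difference was 2167 bp.

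Cd68, a heavily glycosylated membrane protein used as a macrophage marker, had 3161 bp in wild-type cells and 3313 bp in knockout cells. A knockout region lay over its start, whereas no wild-type region did, the nearest ones ending at −209 bp and beginning at 74 bp from it. Its strongest region was the widest in this group, at 4883 and 5734 bp. The summits lay 3726 and 3690 bp downstream of the start, beyond the end of the gene, which is 1958 bp long. The region at Cd68 therefore need not belong to Cd68.

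Mcoln1 (chromosome 8, 3500519 to 3515232), the calcium channel through which lysosomes signal to TFEB, was the 1 membrane gene past the call. It had 2956 bp in wild-type cells and 2342 bp in knockout cells, a difference of −614 bp. The upstream edges lay 1119 and 1110 bp before the start, whereas the downstream edges lay 1836 and 1231 bp after it. Its folds were the highest of the members in both lists, at 48.0 in wild-type cells and 64.12 in the knockout, with summits 287 and 292 bp upstream. A shorter region at Mcoln1 thus stood beside one of the strongest summits of the knockout list. With the end of the gene chosen by covered length rather than strand, the other end of the gene was taken and the value was 159 bp.

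No V-ATPase gene passed the call. Atp6v1a, the catalytic subunit of the V1 sector, was covered over the whole window of 5001 bp in both libraries, under regions of 5954 and 6182 bp that were the widest of this group. The start of Naa50 lies 532 bp away on the other strand. Atp6v0d1 of the V0 sector had 3994 and 3521 bp, and its −473 bp lay just inside the call. Atp6v0a1 had 3736 and 3836 bp, Tcirg1, which encodes another a subunit, had 3421 and 3253 bp, and Atp6v1h had 2081 and 2187 bp. Atp6ap1, an assembly factor of the pump, had 2088 and 2010 bp. The group median difference was −39 bp. In the knockout 2 genes were longer, 3 shorter and 1 equal, beside 46.6% longer and 52.4% shorter among covered genes. For 5 of the 6 the libraries lay within 200 bp of each other.

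Of 12 proteases, 11 were covered in either list, and 3 were longer and 3 shorter in the knockout by at least 500 bp, beside 14.9% and 9.86% of all covered genes. Ctss (chromosome 3, 95526786 to 95556405), the cathepsin that trims the invariant chain for antigen presentation on MHC class II, had 1494 bp in wild-type cells and 3364 bp in knockout cells. This gain of 1870 bp was the largest among the 46 genes, and 2.95% of covered genes gained at least 1500 bp. The region over the start spanned 1394 bp in wild-type cells and 3277 bp in knockout cells, with a fold of 8.84 within the wild-type list and 24.05 within the knockout list. Most of the gain, 1472 bp, lay downstream of the start.

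Ctsc (chromosome 7, 88278024 to 88315861), the dipeptidyl peptidase that activates granzymes in cytotoxic lymphocytes and serine proteases in myeloid cells, had 2244 bp in wild-type cells and 4000 bp in knockout cells. The gain of 1756 bp was spread over both sides, with 744 bp upstream and 1012 bp downstream. Its fold was 9.36 in the wild-type list, at percentile 56.1 of that list, and 23.77 in the knockout list, at percentile 79.3. Ctss and Ctsc were thus middling regions of the wild-type list and stronger ones of the knockout list. All 18 T cell markers were longer in the knockout by at least 500 bp (median 4056.5 bp), beside 14.9% of covered genes, and their part in the gain at Ctss and Ctsc was not tested. Myeloid markers, most of which were shorter in the knockout, had a median of −331 bp.

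Ctsf (chromosome 19, 4855165 to 4860918), a papain-like cathepsin, was the gene marked in the knockout only. It had 0 bp in wild-type cells and 666 bp in knockout cells, under a single region from 27 to 692 bp after the start. The fold of that region was 6.36, at percentile 39.1 of the knockout list, which was the lowest of the members there. With the 20000 strongest regions kept in each list it was absent and the difference was 0 bp.

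Tpp1, Ctsh and Ctsl were the proteases with shorter coverage in the knockout. Tpp1 (chromosome 7, 105744811 to 105752282), the tripeptidyl peptidase lost in a childhood neuronal storage disease, had 1859 bp in wild-type cells and 1050 bp in knockout cells. The region differed by −889 bp on its downstream side and by 80 bp upstream, while its fold was 20.8 for the wild-type list and 36.91 for the knockout list. A boundary of Dchs1 lies 754 bp away, and with the gene end chosen by covered length the difference was −102 bp. Ctsh (chromosome 9, 90054267 to 90076095), an aminopeptidase, had 2663 and 2014 bp, a difference of −649 bp. Ctsl (chromosome 13, 64361890 to 64370772), a broad endopeptidase, had 3390 and 2797 bp, a difference of −593 bp, and with the gene end chosen by covered length this was −377 bp.

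The other proteases lay below the call. Ctsd, the main aspartic protease of lysosomes, had 3145 bp in wild-type cells and 3332 bp in knockout cells. Ctsb, a cysteine protease with both endo- and exopeptidase activity, had 3218 and 3378 bp. Lgmn, the asparaginyl endopeptidase that matures cathepsins, had 3751 and 3784 bp under the widest regions of this group (4433 and 4551 bp). Ctsz had 3270 bp in both, and Ctsa, the protective protein of the beta-galactosidase and neuraminidase complex, had 2965 and 2678 bp.

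**Figure D2:**
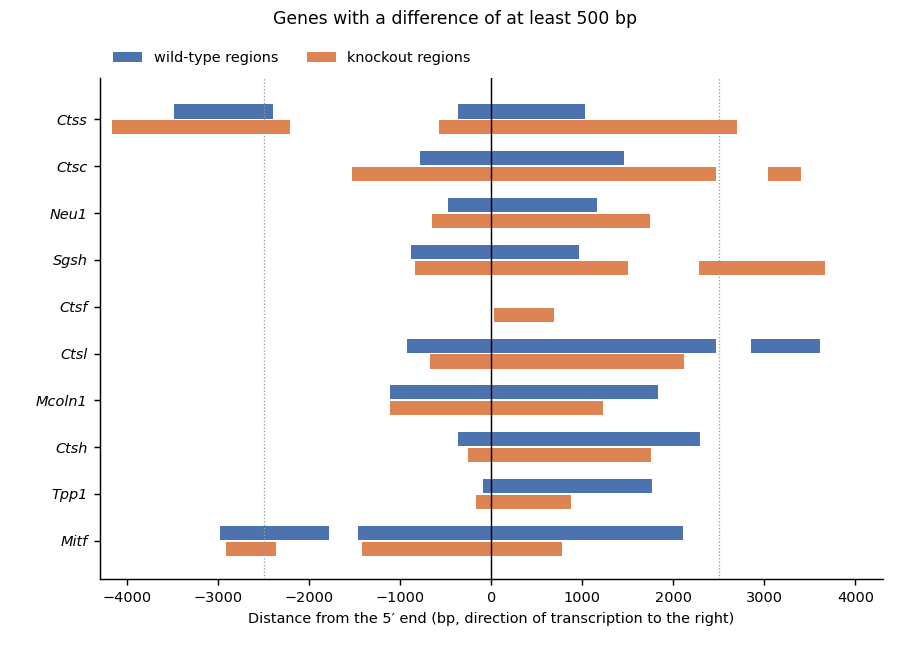
Regions of the wild-type list (blue) and the knockout list (orange) around the 5′ end of the 10 genes that differed by at least 500 bp, with distance from the 5′ end in bp on the x axis and dotted lines at 2.5 kb; the strand of Ctsh is not in the promoter table and its gene body is drawn to the right. The right-hand edges differ more than the left-hand edges, as at Tpp1, where the difference is −889 bp downstream and 80 bp upstream.

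The difference at the called genes lay mostly inside the gene. For 9 of 9 called members with an annotated start the downstream side changed by more bp than the upstream side. The same was true of 61.6% of the 2749 protein-coding genes with an annotated start that passed the call. Ctsh, the other called member, has no strand in the promoter table. With its gene body taken as downstream, its downstream side also changed by more. In both libraries coverage reached farther into the gene than upstream, with medians over the 46 members of 1900 bp downstream and 753 bp upstream in wild-type cells and 1878 and 830.5 bp in the knockout.

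Glycosidases and sulfatases were marked in both libraries for all 13 genes. Of these, 10 were longer in knockout cells and 3 shorter (median difference 48 bp), beside 46.6% and 52.4% of covered genes. The libraries lay within 200 bp of each other for 8 of the 13, so many of these directions rest on small differences. Neu1 (chromosome 17, 34931253 to 34937297), the lysosomal sialidase, had 1640 bp in wild-type cells and 2397 bp in knockout cells, a gain of 757 bp. The summits of the Neu1 regions lay 178 and 182 bp after the start, with a fold of 32.51 within the wild-type list and 46.65 within the knockout list. Sgsh (chromosome 11, 119343489 to 119355510), the heparan sulfatase lost in a form of Sanfilippo syndrome, had 1850 and 2570 bp. Part of its gain of 720 bp came from a separate knockout region that began 2276 bp downstream with a fold of 5.53. Without such weak regions, at a −log10 q of at least 10, the Sgsh gain was 495 bp, and within 1 kb the difference was −5 bp. A boundary of Slc26a11 lies 1 bp from the Sgsh start, so a region there cannot be assigned to 1 of the 2 genes.

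The other 11 genes of this group differed by less than 500 bp. Hexa, the alpha subunit of beta-hexosaminidase, had 4698 and 4643 bp under the widest regions of the group (4737 and 4499 bp), and a boundary of Tmem202 lies 134 bp away. Gaa, the acid alpha-glucosidase that degrades glycogen, had 1571 and 1578 bp. Glb1, the lysosomal beta-galactosidase, had 2681 and 2744 bp. Gla, the alpha-galactosidase lost in Fabry disease, had 3568 and 3926 bp, with the start of Hnrnph2 174 bp away. Gusb, Galc, Man2b1, Manba, Idua, Ids and Naglu differed by between −207 and 259 bp.

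Lipid enzymes and activators were marked in both libraries for all 5 genes and had a median difference of −94 bp. With all regions counted, 1 was longer and 4 were shorter in the knockout, beside 46.6% and 52.4% of covered genes. Psap (chromosome 10, 60277628 to 60302600), the precursor of the saposins that present sphingolipids to their hydrolases, had 3093 bp in wild-type cells and 3074 bp in knockout cells, under the widest regions of any member at a start (7989 and 8355 bp). Npc2, which hands cholesterol to NPC1, had 4014 and 3920 bp, with the start of Isca2 158 bp away. Lipa, the acid lipase, had 2605 and 2317 bp, and Ppt1, a palmitoyl-protein thioesterase, had 2112 and 1720 bp. The Ppt1 difference rested on a weak wild-type region of 398 bp with a fold of 2.86. With only regions at a −log10 q of at least 5, the Ppt1 difference was 6 bp. Smpd1, the acid sphingomyelinase, was the longer one with all regions counted, at 1590 and 1956 bp.

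The strongest regions of most members lay at nearly the same place in both libraries. In 44 members with a region within 1 kb in both lists, the strongest summits lay a median of 32.5 bp apart, and 26 of 44 lay within 50 bp. Those over 300 bp apart were at Lamp2, Cd63, Ctsb, Ctsz and Ppt1. The same distance over all marked genes was not computed, so this closeness is not shown to be particular to the members. For members with an annotated start the median summit lay 189.5 bp downstream in wild-type cells and 170 bp in knockout cells, beside 171 and 167 bp over all marked genes with an annotated start. The strongest region of each member had a median fold of 29.78 for the wild-type list and 36.76 for the knockout list. Over all marked genes with an annotated start these medians were 28.87 and 32.61. The median percentiles of the members were 87.6 and 90.5, ranked against every region of each list, at gene starts or elsewhere. Single members ranked differently, with percentiles of 54.1 and 79.6 at Ctss, 56.1 and 79.3 at Ctsc, and 45.4 and 64.7 at Lamp2. The source of the background behind these folds is not stated. Folds of the lists are given side by side, and a difference between them was not tested.

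**Figure D3:**
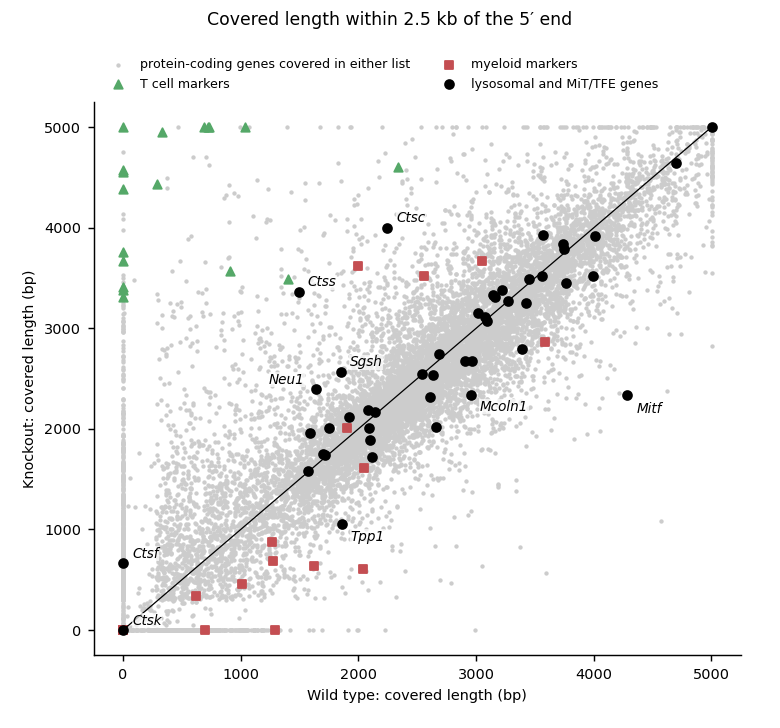
Covered length within 2.5 kb of the 5′ end in the wild-type library (x axis, bp) against the knockout library (y axis, bp) for 14385 protein-coding genes covered in either list (grey), the 46 lysosomal and MiT/TFE genes (black), 18 T cell markers (green) and 18 myeloid markers (red). Most black points follow the line of equal length, with Ctss at 1494 and 3364 bp above it and Mitf at 4286 and 2341 bp below it, while the T cell markers lie at the upper left.

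Over the gene bodies, beyond 2.5 kb from the 5′ end, the libraries shared fewer regions. Of the member regions within 2.5 kb, 96.2% of 53 in wild-type cells and 96.0% of 50 in the knockout overlapped a region of the other list by at least 1 bp. Of those that touched the gene only beyond 2.5 kb, 65.3% of 49 in wild-type cells and 56.6% of 53 in the knockout did. Some of these lay upstream of the 5′ end used, as at Ids and Cd63, or ran past the other end of the gene, as at Mcoln1. Across each whole list, at gene starts or elsewhere, the shares were 73.3% and 76.0%. Shares near the starts and inside the bodies of all genes were not computed. The fall beyond 2.5 kb is therefore not shown to be particular to the members. Member regions beyond 2.5 kb that were found in 1 list were weak, with median folds of 4.68 in wild-type cells and 4.98 in the knockout.

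Covered length over the gene body was measured over the whole annotated gene, including the part within 2.5 kb of the 5′ end. It was at least 1500 bp longer in the knockout for 9 of 45 members with a region over the gene, where 10.8% of such protein-coding genes passed. It was at least 1500 bp shorter for 3, where 6.11% passed. The 9 were Scarb2, Ctsd, Glb1, Psap, Npc1, Atp6v0a1, Ctss, Ctsc and Sgsh. Scarb2 (chromosome 5, 92441311 to 92505657) had 2441 bp in wild-type cells and 8808 bp in knockout cells, with 5 knockout regions beyond the window and no wild-type region there. The strongest of these spanned 1601 bp with a fold of 10.78, and began 13472 bp after the start. Glb1 (chromosome 9, 114401078 to 114474379) had 1784 and 4639 bp over the gene, with 3 knockout regions beyond the window whose folds ran from 3.32 to 6.87. Ctsd (chromosome 7, 142375910 to 142387827) had 4085 and 7077 bp, where a wild-type region of 572 bp lay at the place of a knockout region of 3550 bp. These genes had nearly the same length at the start in the libraries and differed inside the gene. The T cell markers were all longer in the knockout within 2.5 kb of the 5′ end, which is another measure. Gene-body lengths of the markers are not given here, and their part in this was not tested.

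The 3 genes with shorter gene-body coverage in the knockout were Mitf, Ctsb and Lgmn. Mitf had 14879 bp in wild-type cells and 6018 bp in knockout cells, with 13 and 5 regions beyond the window. The strongest of these in the wild type spanned 2455 bp from 10182 bp after the start with a fold of 13.0, and the knockout had a region of 1529 bp there with a fold of 8.29. Ctsb (chromosome 14, 63122462 to 63145923) had 9737 and 7041 bp, and Lgmn (chromosome 12, 102394082 to 102439728) had 6295 and 3942 bp. At Lgmn 3 wild-type regions and 1 knockout region lay beyond the window. Of 18 myeloid markers 10 were shorter and 4 longer in knockout cells within 2.5 kb of the 5′ end, not over the gene body. Over all covered genes 52.4% were shorter and 46.6% longer there. The part of these markers in the shorter gene-body coverage was not tested.

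**Figure D4:**
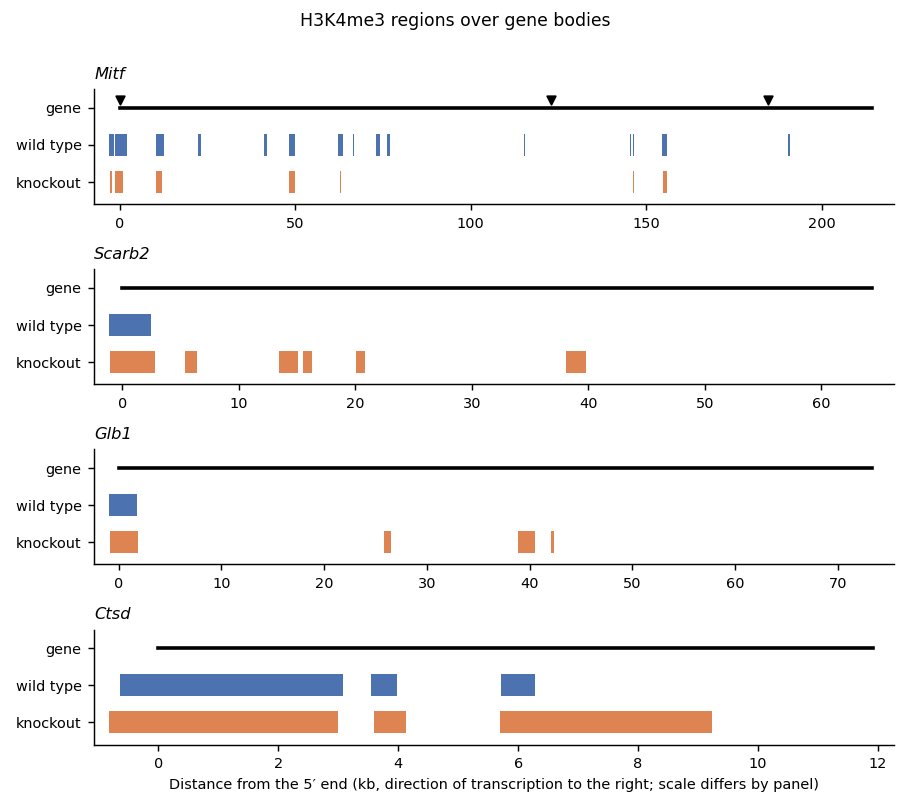
Regions of the wild-type list (blue) and the knockout list (orange) over 4 genes, with distance from the 5′ end in kb on the x axis, the annotated gene as a black line and annotated starts of Mitf as triangles. Mitf has 13 wild-type and 5 knockout regions beyond 2.5 kb, whereas Scarb2 has 0 and 5 and Glb1 has 0 and 3.

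Members with and without the E-box core were described side by side, with no test. The 12 with CACGTG had medians of 3015.5 bp in wild-type cells and 2770.5 bp in the knockout and a median difference of 21.5 bp, with 7 longer, 4 shorter and 1 equal. The 30 without it had medians of 2621.5 and 2607 bp and a median difference of 2.5 bp, with 15 longer, 13 shorter and 2 equal. Over all covered genes 46.6% were longer and 52.4% shorter. Past the 500 bp call, 2 of the 12 were longer (Ctsf and Sgsh) and 2 shorter (Mcoln1 and Ctsl), and of the 30 without the core 3 were longer and 2 shorter, beside 14.9% and 9.86% of all covered genes. Of the 6 promoters printed above, the 1 past the call was that of Mcoln1.

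The other lysosomal genes numbered 76 in 5 lists. The wild-type list marked 68 and the knockout list 73, beside 59.6% and 61.1% of all protein-coding genes. Those marked in the knockout only were 5, beside 3.24% of all protein-coding genes, namely Ctsw, Acp5, Atp6v0d2, Mcoln3 and Tfec. Covered length was longer in the knockout by at least 500 bp for 10 of the 73 covered genes and shorter for 7, beside 14.9% and 9.86% of all covered genes. Among 19 other hydrolases, Ctsw, a cathepsin of cytotoxic lymphocytes, had 0 bp in wild-type cells and 2493 bp in knockout cells. Acp5, the tartrate-resistant acid phosphatase, had 471 and 2566 bp, Arsb had 1618 and 2735 bp, and the phospholipase gene Pla2g15 had 4809 and 3357 bp. Among 12 other V-ATPase subunits Atp6v0d2, an isoform of osteoclasts and macrophages, had 0 and 845 bp. The boundaries used for Ctsw and Atp6v0d2 were chosen by covered length.

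Among 19 other lysosomal membrane genes, the channel genes Mcoln3 and Mcoln2 had 1823 and 2862 bp in the knockout against 0 and 1215 bp in the wild type. Both are paralogs of Mcoln1, which was shorter in the knockout. Laptm5, a lysosomal protein of blood cells, had 2491 bp in wild-type cells and 4193 bp in knockout cells, and Cln3 had 4356 and 3011 bp. Of 9 genes of hydrolase sorting, Igf2r, the large mannose 6-phosphate receptor, had 979 and 2599 bp. Of 17 genes that control MiT/TFE factors or belong to the family, 4 were longer in the knockout and 12 shorter. Over all covered genes 46.6% were longer and 52.4% shorter. The median difference of the 17 was −133 bp, and 9 of them lay within 200 bp in the 2 libraries. Tfec, the MiT/TFE paralog of myeloid cells, had 450 and 1574 bp, a direction opposite to that of Mitf. The Ragulator genes Lamtor4 and Lamtor1 had 3338 and 2525 bp in the knockout against 2229 and 3350 bp in the wild type, and Fnip2, a partner of folliculin, had 3186 against 3725 bp. T cell markers were longer in the knockout in the same comparison, and their part in the gains at Ctsw and Laptm5 was not tested. The 16 housekeeping genes had a median of −14 bp, with 2 past the call.

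**Figure D5:**
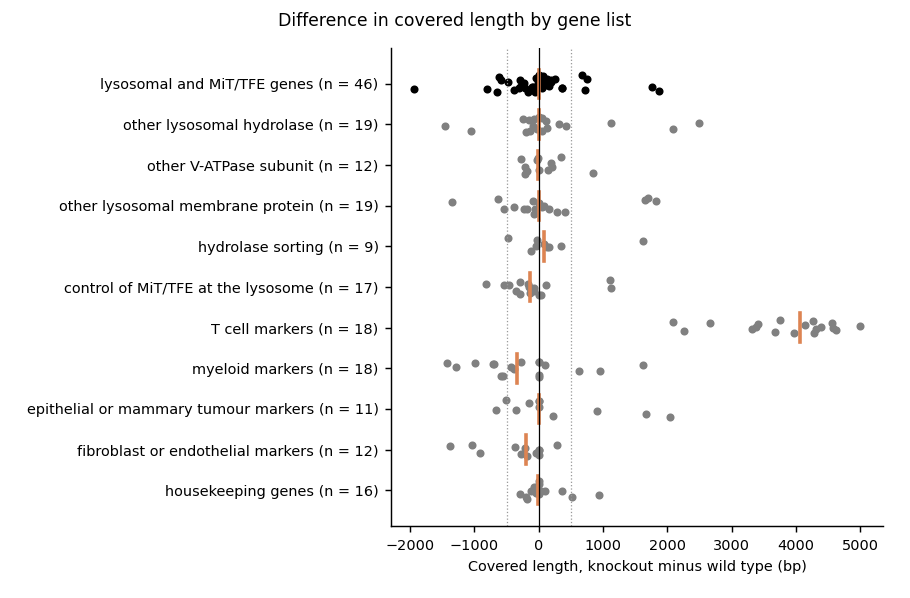
Knockout minus wild-type covered length (x axis, bp) for each gene of the lysosomal list (black) and of the other lists (grey), with the median of each list as an orange bar and dotted lines at 500 bp either side of 0. The lysosomal median is 6 bp and the T cell marker median 4056.5 bp.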

How the data were processed

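Peaks were called with MACS2 on GRCm38 (mm10), per the submitters' processing notes. Version, settings, aligner and input use: none of these is given in the sources used here. Each deposited list comes from 1 H3K4me3 library. The deposited fold is a ratio of summit reads to local background, and the deposited −log10 p and −log10 q refer to the same summit. The deposited score is −log10 q times 10 and was not used. The lowest −log10 q was 2.00 (wild type) and 2.02 (knockout). Depth is not stated in the lists, so the length of regions may reflect it.

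Regions off the main chromosomes were left out (65 wild-type and 64 knockout). Those kept covered 71.25 Mb (wild type, median width 1103 bp) and 73.1 Mb (knockout, 1130 bp). The 5′ end was the most upstream start in the RefSeq promoter table (GRCm38.p6), which holds 17492 of 21887 protein-coding genes and 42 of 46 members. For the rest, including Npc1, Atp6v1h, Ctsb and Ctsh, it was the gene boundary with more covered length. The tables give no exons. The members and lists were chosen with earlier results of these data known. All members may be named. Those described in full are the MiT/TFE factors, members marked in 1 list only, members past the 500 bp call and the widest region of each role. Up to 4 called genes are named per pathway list. Marker genes at 0 bp and members of the gene-body counts were named after their values were seen. With 1 library per genotype no test was made. Python 3.11.15, NumPy 2.4.6, pandas 2.3.3 and Matplotlib 3.10.9 were used, and the covered-length step was tested on simulated regions.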

Additional observations from a re-analysis of the deposited data

How the results depend on the processing

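The covered lengths were recomputed under 7 planned settings and 2 chosen after seeing the data (all annotated starts of a gene, and the 42 members with an annotated strand). Under each of the 9 the median difference stayed between 0 and 28 bp, and the wild-type and knockout lists marked between 40 and 44 and between 41 and 45 members. Counts past 500 bp depended on the stretch measured. Within 1 kb, 1 member was longer and 0 were shorter in the knockout, beside 7.89% and 2.48% of protein-coding genes covered there. Within 5 kb, 7 were longer and 10 shorter, beside 20.2% and 15.9%. Over the gene body, 13 were longer and 10 shorter, beside 22.8% and 18.5%. With the gene end chosen by covered length, 5 were longer and 2 shorter, beside 14.4% and 10.2%, and Mcoln1 turned to 159 bp. The cause of these changes was not tested. Sgsh turned to −5 bp within 1 kb. Some members below the call passed it without weak regions. At a −log10 q of at least 10 these were Tfe3 (694 bp), Cd68 (886 bp) and Hexa (−651 bp), while Sgsh fell to 495 bp. With the 20000 strongest regions per list Lamp2 was at 2167 bp and Ctsf at 0 bp. Mitf, Ctss, Ctsc, Neu1, Tpp1, Ctsl and Ctsh kept their direction in every setting that held them, but each fell under 500 bp within 1 kb. No paired analysis was possible because each genotype has 1 library. Unstated depth and 1 library per genotype limit every difference in length.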
